A study of Mus musculus with 9 samples.

Results

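The genomic neighbourhoods of the cryptochrome genes Cry1 and Cry2 were examined for PPARγ binding in murine interscapular brown adipose tissue (iBAT). Members were all PPARγ peaks whose midpoint lay between 85.1 and 85.22 Mb on chromosome 10 (Cry1) or between 92.38 and 92.46 Mb on chromosome 2 (Cry2), in mm10 coordinates. This gave 24 of 66066 peaks, 9 in the Cry1 window and 15 in the Cry2 window. Not every peak of a window belongs to the cryptochrome gene: 13 of the 24 had a Cry1 or Cry2 start site as their nearest curated RefSeq start site, 6 at Cry1 and 7 at Cry2.

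Chromatin immunoprecipitation with a PPARγ antibody and sequencing was carried out on iBAT of male C57BL/6J mice, 10 weeks old, at 8 time points spaced 3 h apart. All mice were chow-fed and kept at mild cold in a 12 h light and 12 h dark cycle, so that the groups, taken every 3 h from ZT0 to ZT21, differed only in Zeitgeber time (ZT), with lights on at ZT0 and off at ZT12. Each time point was 1 library made from the pooled tissue of 8 mice, so that variation between mice at a given time was not measured. An input sample labelled ZT12 was not analysed here. The 8 libraries held between 29572225 and 34264812 reads in peaks, and all 5 adipocyte markers and 6 of 7 brown adipocyte markers had at least 1 nearest peak (Prdm16 had none), against 2 of 4 muscle and 1 of 3 immune markers. In bulk tissue, fewer cells of a type and less binding per cell cannot be told apart.

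Cryptochromes are the repressor arm of the molecular clock. The activators CLOCK and BMAL1 (Arntl) bind E-boxes in the Per and Cry genes, and the PER and CRY proteins that accumulate return to the nucleus and shut those activators off. CRY1 and CRY2 also bind nuclear receptors, and Cry1 transcription is known to run later than that of other E-box genes, with ROR elements in its first intron taking part in that delay. PPARγ is the nuclear receptor that drives adipocyte differentiation and lipid storage, and it binds DNA as a dimer with RXR at direct repeats of AGGTCA spaced by 1 base (DR1). RORs and REV-ERBs bind a related element, the RORE, which contains a single copy of that repeat unit.

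Both genes are transcribed from the reverse strand. Cry1 spans chr10:85131700-85185054 with 13 exons, and Cry2 spans chr2:92403646-92434069 with 12 exons. In each window 1 peak inside the gene combined a high read count with a clear daily rhythm, and it is called the leading peak of its window below; it had the lowest false discovery rate of the window in the cosine fit described further on, and was chosen after the values were seen. The leading Cry1 peak, at chr10:85160769-85163455, lay in intron 1 with its midpoint 22.9 kb downstream of the start site. Its counterpart in Cry2, at chr2:92421237-92425606, had its midpoint 10.6 kb downstream of the start site and reached from intron 2 to intron 5, across exons 3 to 5.

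Sequences of these peaks were read from GRCm38.p6, the same assembly as mm10, and are given 5′ to 3′ on the strand of the genes. They are shown because the 2 leading peaks differed in the clock-related letters they contained. Letters searched on both strands were CACGTG (E-box), CACGTT (E′-box), TTATGNAA (D-box), AANTN followed directly by GGTCA (RORE) and AGGTCA repeated after any 1 base (DR1, with up to 2 mismatches at its 12 fixed bases). The last 5 letters of the RORE are also part of the DR1 repeat unit. Capitals mark every match. Both stretches below were centred on the matches they show and not on the centres of their peaks. The E-box nearest the centre of the leading Cry2 peak lies outside its stretch. The first stretch, 300 bases of the leading Cry1 peak at chr10:85161792-85162091 in intron 1, holds 2 RORE matches on opposite strands, and the second, 300 bases of the leading Cry2 peak at chr2:92423689-92423988 in intron 3, holds 2 E-boxes and a D-box.
Cry1 intron 1: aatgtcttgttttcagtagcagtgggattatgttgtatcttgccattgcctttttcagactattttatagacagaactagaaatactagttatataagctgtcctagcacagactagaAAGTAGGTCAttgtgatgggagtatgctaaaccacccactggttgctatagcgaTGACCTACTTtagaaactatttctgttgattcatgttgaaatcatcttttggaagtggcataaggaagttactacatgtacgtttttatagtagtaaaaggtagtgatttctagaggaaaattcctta
Cry2 intron 3: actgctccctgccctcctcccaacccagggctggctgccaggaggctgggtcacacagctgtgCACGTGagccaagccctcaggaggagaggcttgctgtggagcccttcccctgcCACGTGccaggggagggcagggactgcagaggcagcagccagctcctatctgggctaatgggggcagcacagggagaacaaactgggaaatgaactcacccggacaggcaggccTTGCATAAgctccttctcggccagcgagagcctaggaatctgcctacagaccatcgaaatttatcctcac

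The 2 RORE matches of the leading Cry1 peak, at chr10:85161910-85161919 and chr10:85161964-85161973, spanned 64 bases together. Among 2022 peaks within 10% of its length, 8.11% held a RORE match and 0.445% held at least 2. That peak also held 1 E′-box and 1 DR1 match with 2 mismatches, but no E-box or D-box. The leading Cry2 peak held 3 E-boxes and 2 D-boxes in its 4370 bases and no match to the RORE, the E′-box or the DR1. Of 776 peaks of like length, 51.5% held at least 1 E-box, 5.54% held at least 3 and 11.6% held a RORE. These matches describe letters only and do not show which protein was bound.

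The bases upstream of both start sites are shown for the canonical clock elements of the promoters, which both lay under a PPARγ peak. They are RefSeq promoter sequences of GRCm38.p6, cut before the most upstream annotated start, at chr10:85185055-85185304 for Cry1 and chr2:92434086-92434319 for Cry2.
Cry1 promoter: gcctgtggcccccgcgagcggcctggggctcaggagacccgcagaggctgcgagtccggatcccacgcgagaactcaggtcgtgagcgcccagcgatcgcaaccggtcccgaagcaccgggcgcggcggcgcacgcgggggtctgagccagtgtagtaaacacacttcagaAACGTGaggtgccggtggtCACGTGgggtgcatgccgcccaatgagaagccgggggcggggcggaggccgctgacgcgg
Cry2 promoter: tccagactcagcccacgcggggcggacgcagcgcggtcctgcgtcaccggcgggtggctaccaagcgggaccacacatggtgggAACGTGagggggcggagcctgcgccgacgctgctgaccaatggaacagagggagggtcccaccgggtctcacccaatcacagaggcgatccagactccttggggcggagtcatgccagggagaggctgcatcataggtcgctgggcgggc

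The Cry1 promoter held an E-box and an E′-box and the Cry2 promoter an E′-box only. Over 32851 promoters of 300 bases, 7.15% held an E-box and 4.68% an E′-box. No D-box, RORE or DR1 match lay in either stretch, which concerns only these letters in these windows. The whole PPARγ peak over the Cry2 start, 6339 bases wide, did hold 3 RORE matches and 1 D-box outside the stretch shown, and 0.851% of 235 peaks of like length held as many ROREs. RORE matches lay in 4 of 24 whole peaks: that peak, the leading Cry1 peak, the peak 5.18 kb upstream of Cry1 and the peak on the start of Mterf2. The first and last of these 4 passed neither test of oscillation described below. In the central 300 bases 2 of 24 members held a RORE, against 1.61% of 66059 peaks on assembled chromosomes. For whole peaks of like length the share with a RORE ranged over the members from 1.98% to 22.6%. For DR1 over all members, 6 of 24 whole peaks held a match, and the share in whole peaks of like length ranged from 13.3% to 72.3%. In the central 300 bases 1 of 24 members held a DR1 match, against 9.68% of the 66059 peaks.

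Counts below are reads in a peak after TMM normalization to a library of median total, abbreviated as normalized read counts. Oscillation was assessed by JTK-cycle with periods of 21 and 24 h, which gives a P adjusted over the 15 combinations of period and phase of one peak, not over peaks, and an estimated time of the highest value (LAG). A 24-h cosine fitted with edgeR gave a false discovery rate (FDR) over all 66066 peaks, a peak-to-trough change on the log2 scale with its SE, and a fitted time of the peak. By JTK 11.6% of all 66066 peaks passed the exact test at the 0.05 level, and no peak passed after adjustment over all peaks (the lowest adjusted value was 0.0968, 0 peaks under 0.05). By the cosine 13.4% passed FDR < 0.05, 5.80% with a fitted peak in the dark phase and 7.58% in the light phase. The split depended on scaling: 48.7% of all JTK calls had a LAG in the dark phase with TMM and 65.5% with library totals only, and for the cosine these were 43.3% and 65.1%.

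Around Cry1, the PPARγ peaks that passed a test of oscillation were all highest at ZT18 or ZT21. In the Cry1 window 4 of 9 peaks passed JTK, all 4 with a LAG in the dark phase (5.66% of all peaks had such a call), and 5 of 9 passed the cosine, all 5 with a fitted peak between ZT19 and ZT23 (5.80% of all peaks). With 1 library left out, these counts ranged from 2 to 5 for JTK and from 2 to 5 for the cosine. Both tests were passed by 4 of 9 peaks in the Cry1 window and 1 of 15 in the Cry2 window, beside 6.71% of all peaks. The median peak-to-trough change of the 9 peaks was 0.76 on the log2 scale, beside 0.35 over all peaks. In the Cry2 window 1 of 15 peaks passed JTK, with a LAG in the light phase (5.97% of all peaks), and 2 of 15 passed the cosine, beside 13.4% of all peaks, with a median change of 0.33. That 1 call of 15 is below the 11.6% of all peaks that passed JTK in either phase.

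The leading Cry1 peak had normalized read counts in time order of 989.7, 552, 384, 405, 457, 594, 995 and 994 from ZT0 to ZT21. It was highest in the late dark phase and at lights on and lowest at ZT6, and the intervals of counting error of the 3 high libraries (929 to 1060) did not overlap those of any other library. The highest library was 2.59-fold above the lowest. JTK gave exact P = 0.0260 with a LAG of 19.5 h and a relative amplitude of 56.4%, and the cosine gave a peak-to-trough change of 1.54 ± 0.14 (log2, SE; 2.91-fold), a fitted peak at ZT20.7 ± 0.34 h and FDR = 0.000114. The change of 1.54 was above that of 99.7% of all peaks. Across the genome this was not a dense peak: at 249.8 reads per kb it stood above 45.9% of peaks, while its width of 2687 bases placed its mean count of 671 above 80.8%.

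**Figure D1:**
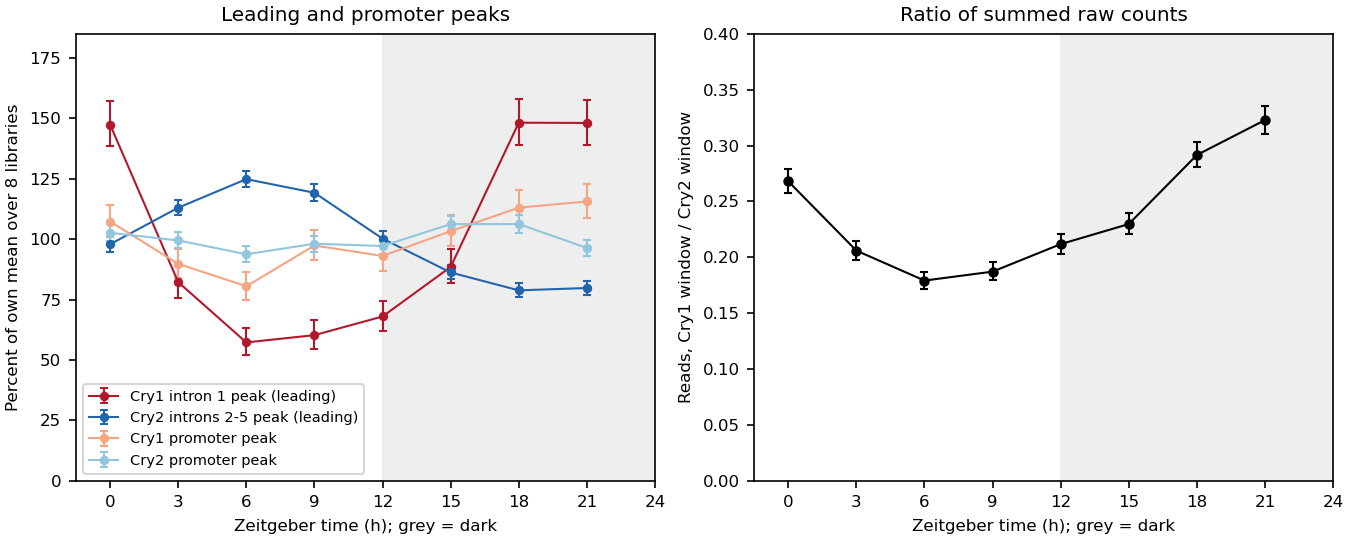
Left, normalized read counts of the leading and promoter peaks of both genes as percent of each peak's own mean over 8 libraries, by Zeitgeber time; bars are 95% Wilson intervals of counting error and there is 1 library per time point. The Cry1 intronic peak ranged from 57.3% to 148% of its mean and the Cry2 intronic peak from 78.8% to 125%, and their fitted peaks were 9.81 h apart. Right, the ratio of raw reads in the Cry1 window to those in the Cry2 window with 95% intervals, lowest at ZT6 (0.179) and highest at ZT21 (0.323).

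Further into the gene, the peak at chr10:85153966-85154661 lay in intron 2, 30.7 kb from the Cry1 start, although the nearest annotated start was that of Mterf2, a mitochondrial transcription termination factor gene. Its counts were 132, 101, 82.1, 65.98, 92.9, 99.4, 143 and 155 from ZT0 to ZT21. It was lowest at ZT9 and highest at ZT21, and passed both tests (exact JTK P = 0.00595, LAG 21 h; cosine 1.08 ± 0.19, fitted peak ZT20.7, FDR = 0.00662).

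Nearer the start, the intron 1 peak at chr10:85174603-85175557 (9.97 kb from the start) was among the sparsest of the genome, with 70.2 reads per kb, above 0.245% of all peaks. The counts were 79.7, 56.1, 56.03, 36.4, 54.1, 67.5, 109.7 and 76.6 from ZT0 to ZT21. These were lowest at ZT9 and highest at ZT18, with exact JTK P = 0.00595 (LAG 19.5 h) and a cosine of 1.11 ± 0.25 (FDR = 0.0245). The JTK call was lost (exact P = 0.161) without any 1 of ZT0, ZT15, ZT18 and ZT21, and the cosine call without ZT9, ZT12 or ZT18 (FDR 0.104, 0.0514 and 0.124). This peak held 2 DR1 matches, one with 1 mismatch at chr10:85174803-85174815 on the gene strand:
Cry1 intron 1 DR1: actactttAGGCCAAAGGTCAgggcaact

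Upstream of the gene, the peak at chr10:85187487-85187951 (2.67 kb before the start) gave 133, 104, 76.3, 89.6, 87.8, 114, 141 and 123 from ZT0 to ZT21. It passed JTK (exact P = 0.0260, LAG 19.5 h) and the cosine (0.76 ± 0.19, FDR = 0.0397). With a period of 24 h only its exact JTK P was 0.113, and it rose to 0.161 without any 1 of ZT0, ZT3, ZT15, ZT18 and ZT21. The cosine FDR rose to between 0.0563 and 0.140 without any 1 of ZT0, ZT6, ZT9, ZT12, ZT15 and ZT18, and to 0.0561 with the DESeq2 likelihood ratio test. The peak at chr10:85189839-85190631, 5.18 kb before the start, gave 262, 166, 174, 178, 111, 142, 213 and 274 in the same order. It was lowest at ZT12 and highest at ZT21 and ZT0, and passed the cosine (0.94 ± 0.22, fitted peak ZT22.8, FDR = 0.0293) but not JTK (exact P = 0.467). Its cosine FDR rose to between 0.0511 and 0.118 without any 1 of ZT0, ZT6, ZT12, ZT15, ZT18 and ZT21. A single RORE match lay in this peak, at chr10:85190089-85190098.

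The Cry1 promoter peak, at chr10:85183543-85185725, covered the start site and exon 1. It had the highest mean count of the window, 925 normalized reads, with 993, 831, 745, 901, 861, 956, 1046 and 1069.8 from ZT0 to ZT21. Libraries from ZT15 to ZT0 were the highest 4 and ZT6 the lowest. Neither test passed, with exact JTK P = 0.212 and a cosine of 0.42 ± 0.11 at FDR = 0.0502. The cosine did pass with library totals only (FDR = 0.0214) and with the DESeq2 likelihood ratio test (FDR = 0.0293), and both tests passed without ZT9 (FDR = 0.0369, exact JTK P = 0.0417). Between promoter and leading peak, a weak intron 1 peak at chr10:85167481-85167811 ranged from 20.3 reads at ZT15 to 60.9 at ZT6 and passed neither test (exact JTK P = 1.00, cosine FDR = 0.342).

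Both remaining peaks of the Cry1 window lay downstream of the gene at the starts of its neighbours. The peak at chr10:85127628-85128430, on the start of Mterf2, ranged from 325 reads at ZT0 to 406 at ZT12, and that at chr10:85102151-85103761, on the start of Tmem263, a transmembrane protein gene, from 355 at ZT6 to 491 at ZT21. Their cosine changes were 0.11 ± 0.15 and 0.29 ± 0.15, at FDR = 0.845 and 0.345. Calls in this window were therefore at Cry1 itself and within 5.18 kb upstream of it.

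**Figure D2:**
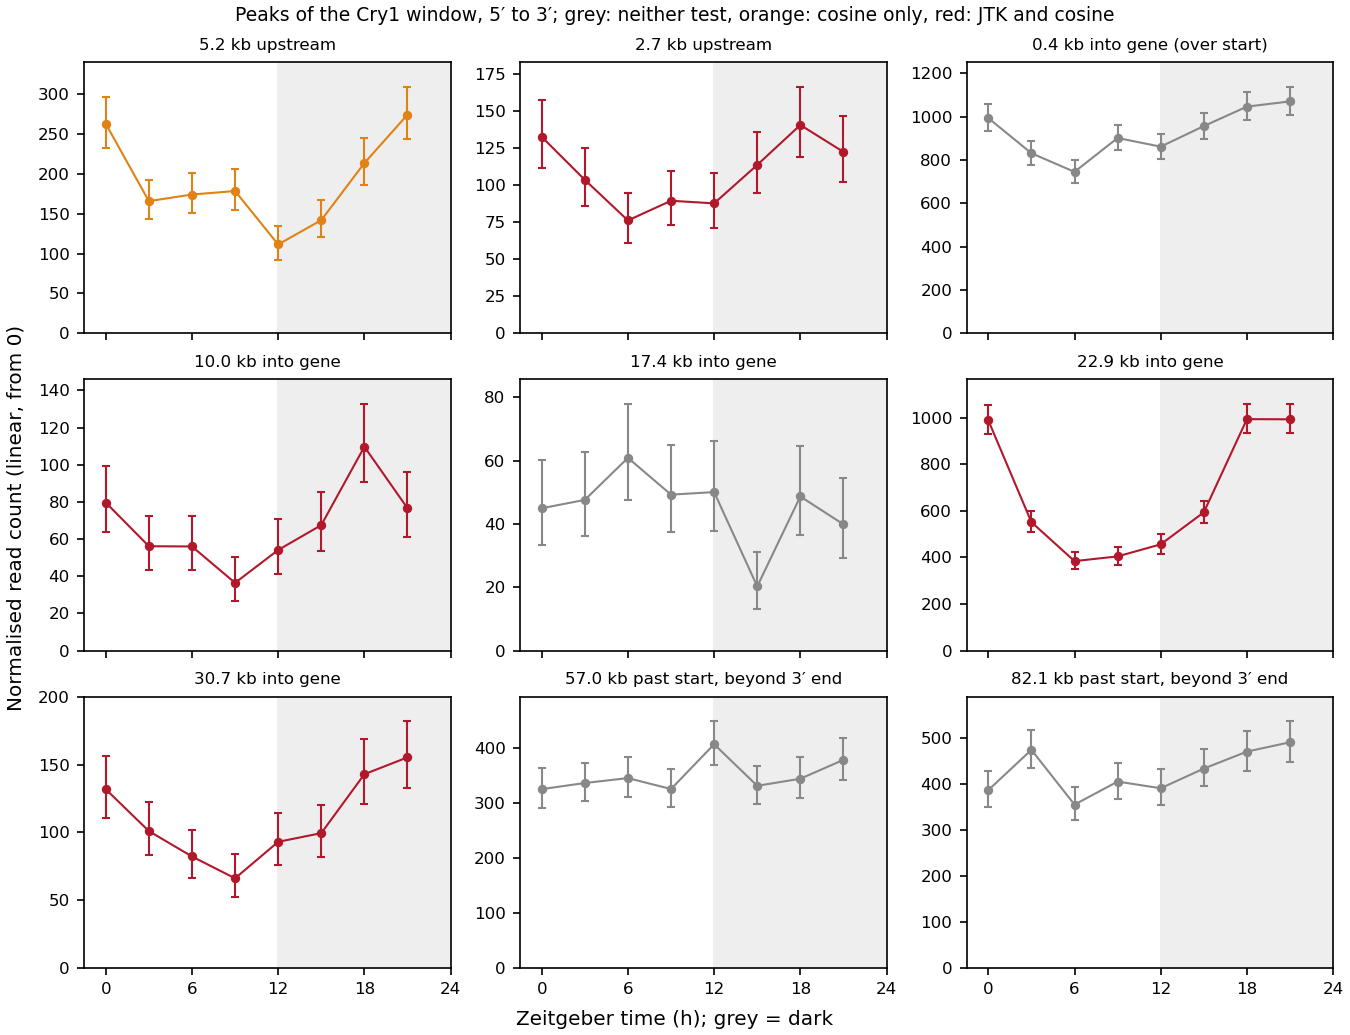
Normalized read counts of the 9 peaks of the Cry1 window against Zeitgeber time, ordered along the gene, with 95% Wilson intervals of counting error and 1 library per point; vertical axes start at 0 and differ between panels, and colours give the tests passed. The 5 coloured panels have their lowest value between ZT6 and ZT12, and the 2 panels beyond the 3′ end, at the starts of Mterf2 and Tmem263, are grey.

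Per length, the leading Cry2 peak held more PPARγ signal than the leading Cry1 peak, 902 against 249.8 reads per kb, and it was highest where the latter was lowest, at ZT6. It had 3859, 4455, 4921, 4698, 3950.3, 3398, 3107 and 3145 from ZT0 to ZT21. Counts rose from lights on to a maximum at ZT6, fell through ZT12 and were lowest at ZT18 and ZT21. JTK gave exact P = 0.000744, the lowest value that this design gives, which 508 peaks reached, with a LAG of 7.5 h. The cosine gave 0.68 ± 0.07 (1.60-fold), a fitted peak at ZT6.47 ± 0.41 h and FDR = 0.000397. With 3942 reads on average it stood above 99.2% of all peaks by count and 97.4% by density. After cyclic loess normalization the JTK call was lost (exact P = 0.0826, LAG 9 h), while the other normalizations kept it. The 3 E-boxes of this peak, at chr2:92423340-92423345, chr2:92423867-92423872 and chr2:92423920-92423925, were all in intron 3.

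The fitted peaks of the 2 leading sites were 9.81 ± 0.53 h apart (SE). This SE treats the 2 fits as independent, although both rest on the same 8 libraries. Raw reads of the Cry1 site relative to the Cry2 site, which need no normalization between libraries, were 0.256, 0.124, 0.0781, 0.0861, 0.116, 0.175, 0.320 and 0.316 from ZT0 to ZT21. Over the 8 libraries, which both peaks share, their log2 counts had a Pearson correlation of -0.81, given as a description.

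The Cry2 promoter peak, at chr2:92428817-92435155, covered the start site, exon 1 and much of intron 1 over 6339 bases. Its counts were 3412, 3308, 3117, 3263, 3231, 3532, 3533 and 3204 from ZT0 to ZT21. They stayed within 1.13-fold, a spread exceeded by nearly all peaks (percentile 1.10), and passed neither test (exact JTK P = 0.467, cosine 0.12 ± 0.08, FDR = 0.551). That percentile was not matched for read count, and the mean of 3325 reads was above 98.7% of all peaks. JTK did pass with library totals only (exact P = 0.0260) and after cyclic loess (exact P = 0.00595), with a LAG of 18 h in both. After cyclic loess the single JTK call of the window was the promoter peak and not the leading peak.

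A pair of intronic peaks followed the promoter. The peak at chr2:92427265-92428756 in intron 1 ranged from 715 reads at ZT15 to 1029 at ZT3, and the peak at chr2:92426293-92426891 in intron 2 from 223 at ZT21 to 294 at ZT3. Both had fitted peaks in the light phase (ZT4.12 and ZT5.84), but neither passed the cosine (FDR = 0.143 and 0.301) or JTK (exact P = 0.467 and 1.00). Upstream of Cry2, peaks centred 3.84, 9.60 and 12.5 kb before the start did not pass either test, with cosine FDR from 0.788 to 0.989. The one 12.5 kb upstream, at chr2:92445133-92448102, was among the steadiest of the genome, between 925 and 989 reads in all 8 libraries. Its coefficient of variation over the libraries, 2.48%, was below its counting error of 3.22%. The ranking was not matched for read count, and its mean of 962 reads was above 87.7% of all peaks.

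At the 3′ end, the peaks described next were highest at ZT15 and ZT18, while their ZT0 values lay above those at ZT12 and ZT21. The peak at chr2:92402551-92404229, which overlaps the last part of exon 12 and the region beyond the gene, gave 566, 531, 336, 396, 379.9, 662, 695 and 472 from ZT0 to ZT21. It was highest at ZT15 and ZT18 and lowest at ZT6, a 2.07-fold range. The cosine passed narrowly (0.79 ± 0.20, fitted peak ZT19.3, FDR = 0.0493) and JTK did not (exact P = 0.0826), although it did without ZT3 or ZT12 (exact P = 0.0417). Its cosine FDR lay between 0.0559 and 0.202 without any 1 of ZT0, ZT6, ZT9, ZT12, ZT15 and ZT18. Its nearest annotated start was that of Mapk8ip1, which encodes a scaffold protein of the JNK pathway, 2.13 kb away. The adjoining peak at chr2:92404726-92405285 in exon 12, within the 3′ untranslated region, gave 84.8, 62.8, 41.5, 64.01, 50.04, 89.7, 104 and 72.5 from ZT0 to ZT21. These values were likewise highest at ZT18 and ZT15 and lowest at ZT6, with a cosine of 0.93 ± 0.26 at FDR = 0.0641 and exact JTK P = 0.0826. The cosine passed with library totals only (FDR = 0.0459) and without ZT21 (0.0344), and JTK passed without ZT3, ZT9 or ZT12 (exact P = 0.0417).

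The other peaks of the Cry2 window passed neither test. Those at 17.7, 20.3, 22.2 and 28.1 kb from the start, which touch exons 6, 7, 11 and 12, had mean counts of 116, 211, 306 and 70.3 and cosine FDR of 0.207, 0.276, 0.540 and 0.309. The nearest start to each of the 4 was that of D930015M05Rik, a long non-coding RNA gene on the other strand that overlaps Cry2. At the far end of the window, the peak at chr2:92389361-92390021, nearest to Mir7000, ranged from 125 to 191 reads (FDR = 0.792). The peak at chr2:92459051-92460633, on the start of Slc35c1, a GDP-fucose transporter gene, ranged from 479 at ZT6 to 639 at ZT21 (FDR = 0.180).

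**Figure D3:**
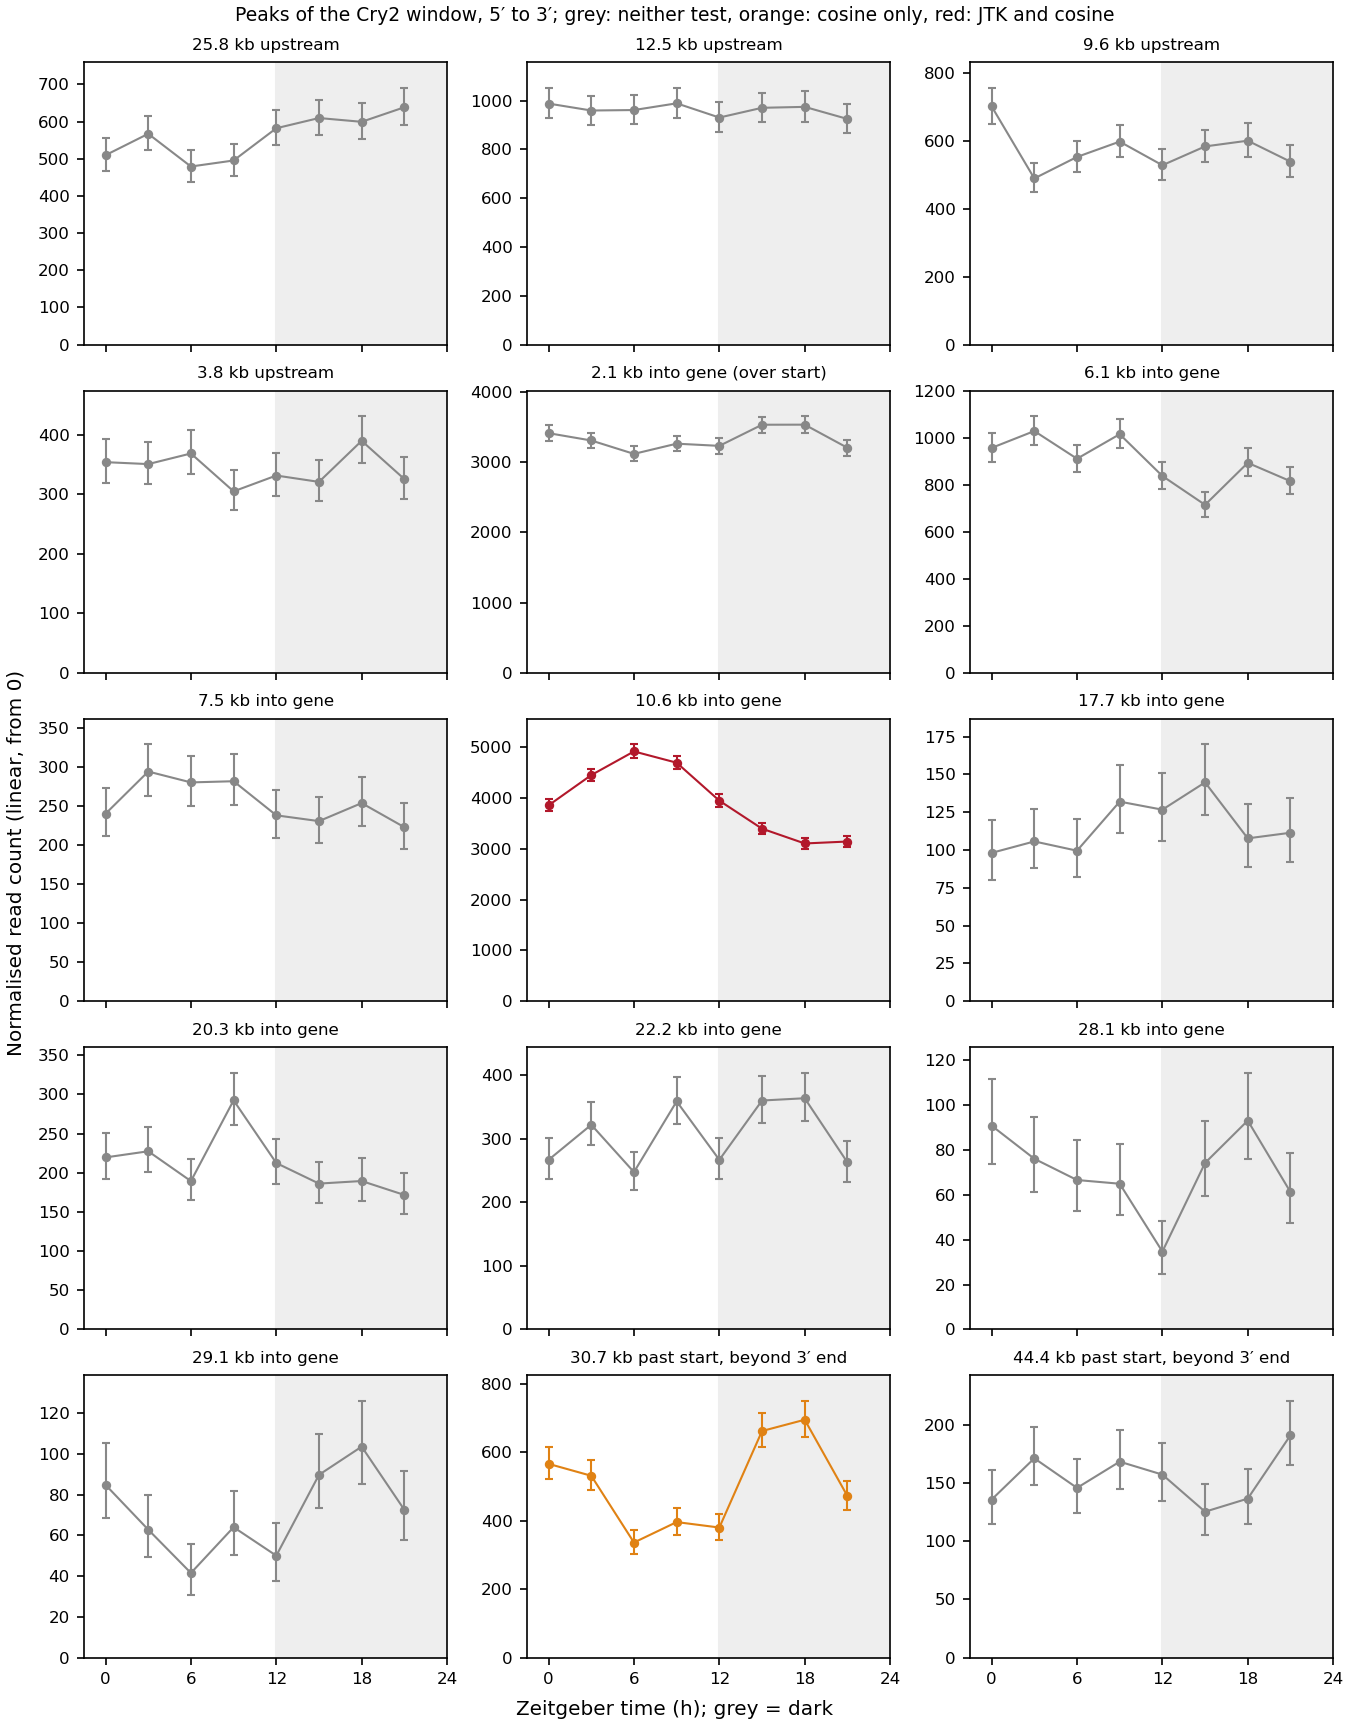
Normalized read counts of the 15 peaks of the Cry2 window against Zeitgeber time, ordered along the gene, with 95% Wilson intervals of counting error and 1 library per point; vertical axes start at 0 and differ between panels. The peak 10.6 kb into the gene (red) is highest at ZT6 with 4921 reads and lowest at ZT18 with 3107, and the peak 30.7 kb past the start (orange) is lowest at ZT6 with 336 and highest at ZT18 with 695.

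**Figure D4:**
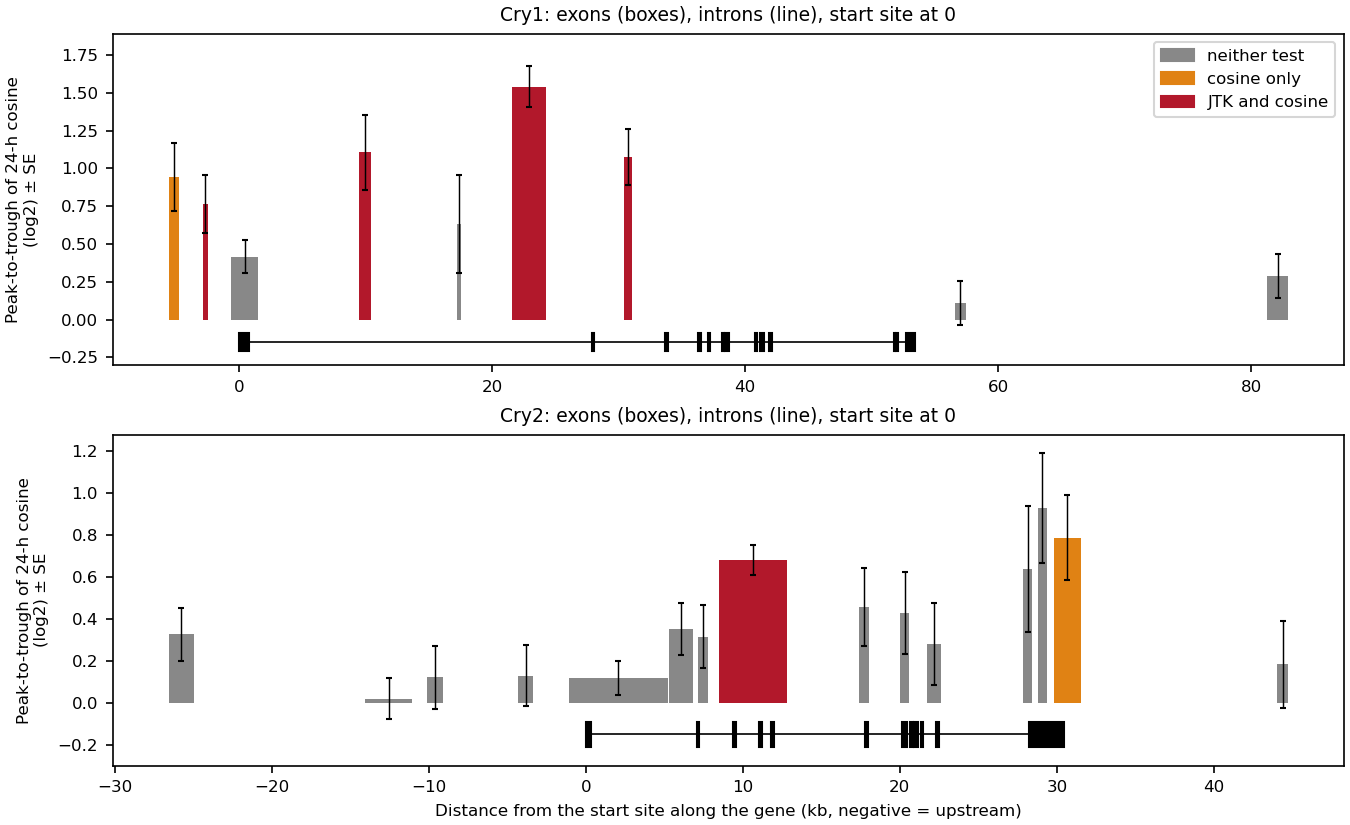
Peak-to-trough change of the fitted 24-h cosine (log2) with its SE for every peak, drawn as bars as wide as the peak and placed by distance from the start site, with exons as boxes beneath. In Cry1 the largest change is 1.54 in intron 1, and the promoter peak (0.42) and the peaks beyond the 3′ end (0.11 and 0.29) are lower; in Cry2 the peak over introns 2 to 5 (0.68) and the 3′ end peak (0.79) pass the cosine.

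Summed over its 9 peaks, the Cry1 window had 3346, 2667, 2279, 2456, 2511, 2758, 3511 and 3602 normalized reads in time order from ZT0 to ZT21. The sum was lowest at ZT6 and highest at ZT21, a 1.58-fold range that narrowed to 1.38-fold without the leading peak. In the Cry2 window the sums were 12484, 12949, 12718, 13122, 11858, 12003, 12041 and 11159 over the same order, a 1.18-fold range. Sums over the members and their ratio are given as values, without a P. Reads of the Cry1 window relative to the Cry2 window were 0.268, 0.206, 0.179, 0.187, 0.212, 0.230, 0.292 and 0.323 from ZT0 to ZT21, a 1.80-fold range. Without both leading peaks that range was 1.34-fold, from 0.243 at ZT6 to 0.325 at ZT21.

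The share of each peak in the raw reads of its own window removes any change common to the window. Of 24 shares tested singly with JTK, 5 passed. These P were not adjusted over the 24 shares, and no matching background over all peaks is given, so no result is read from this count. With 1 library left out, 1 to 3 shares passed in the Cry1 window and 2 to 4 in the Cry2 window. The leading Cry1 peak rose from 16.5% of the window at ZT9 to 29.6% at ZT0 (exact P = 0.00595, LAG 19.5 h), and the share of the Cry1 promoter peak was highest at ZT9 with 36.7% and lowest at ZT0 with 29.7% (exact P = 0.0260). This call of the promoter peak was lost (exact P = 0.161) without any 1 of ZT0, ZT3, ZT9, ZT18 and ZT21. The leading Cry2 peak made up 38.7% of its window at ZT6 and 25.8% at ZT18 (exact P = 0.000744, LAG 7.5 h). The Cry2 promoter peak and the 3′ end peak ran the other way, from 24.5% at ZT6 to 29.4% at ZT15 (exact P = 0.0260) and from 2.64% at ZT6 to 5.77% at ZT18 (exact P = 0.00595). The call of the Cry2 promoter share was lost (exact P = 0.161) without any 1 of ZT3, ZT6, ZT9 and ZT12. Shares of one window sum to the whole, so these changes are not independent of each other.

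**Figure D5:**
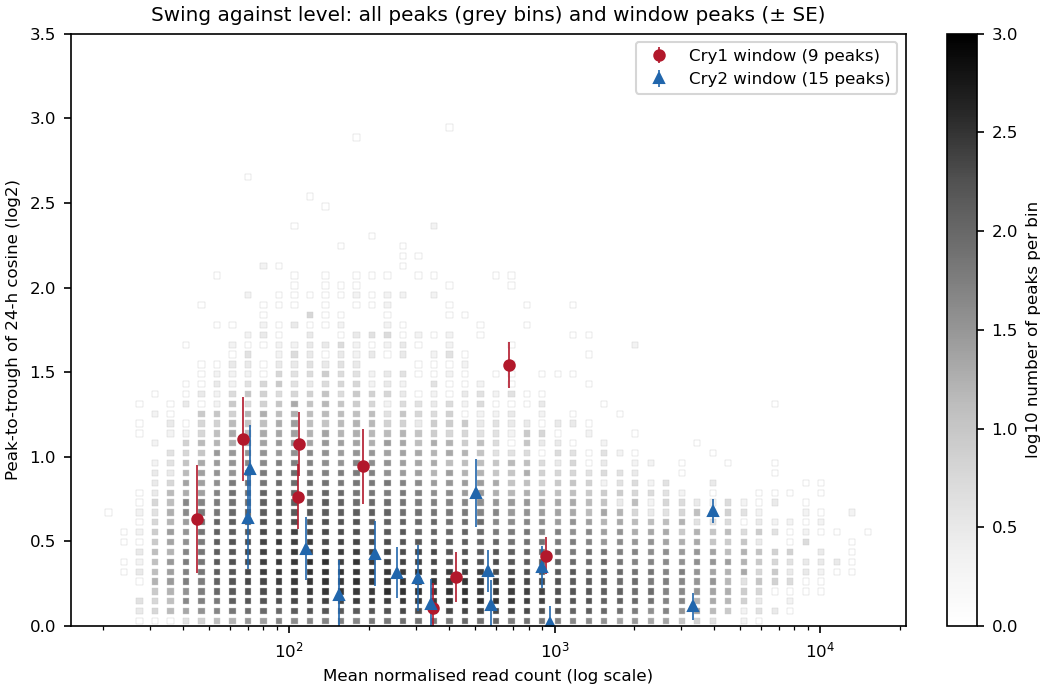
Peak-to-trough change of the fitted 24-h cosine (log2) against mean normalized read count (log axis) for all 66066 peaks as shaded bins and for the peaks of both windows with SE. The leading Cry1 peak (671 reads, 1.54) and the leading Cry2 peak (3942 reads, 0.68) changed more than 99.7% and 85.9% of all peaks.

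Other genes of the clock were compared through a list of 24 genes, by the nearest start site. All 24 had at least 1 peak, 130 in total. By JTK 47 of the 130 passed (36.2%), 33 with a LAG in the light phase and 14 in the dark phase, and by the cosine 63 passed (48.5%), 37 in the light and 26 in the dark phase, with a median change of 0.51. Over all 66066 peaks these shares were 11.6% by JTK and 13.4% by the cosine. At least 1 JTK call was found for 15 of 24 genes and at least 1 cosine call for 19 of 24. Such counts of genes depend on the number of peaks per gene, which reached 24 at Rora. The matching share over all genes is not given here, so no result about the genes is read from them.

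Like the leading Cry2 peak, those called at Nr1d1, which encodes the repressor REV-ERBα, had their fitted peak in the light phase: 4 of 5 peaks passed JTK and 4 of 5 the cosine, and the peak with the lowest FDR changed by 1.88 ± 0.12 with a fitted peak at ZT6.87. Among activators of PAR bZIP type, Dbp (1 of 1 peak, 1.01 ± 0.11, ZT7.78) and Hlf (12 of 17 by the cosine, 1.05 ± 0.14, ZT8.18) also peaked in the light phase, and Tef later (5 of 5, 0.70 ± 0.10, ZT11.2). In the Per genes the single peaks of Per1 and Per3 had fitted peaks at ZT8.27 (0.53 ± 0.09) and ZT9.07 (0.54 ± 0.10). Both passed the cosine but not JTK (exact P = 0.212 for each). Of 5 Per2 peaks 2 passed the cosine, 1 in the light and 1 in the dark phase, and the one with the lowest FDR had its fitted peak at ZT14.3 (1.25 ± 0.15). By JTK 3 of the 5 Per2 peaks passed, all in the dark phase, with LAGs of 13.5, 13.5 and 15 h. The activator genes Arntl and Npas2 had cosine calls in the dark phase, as Cry1 did. Of 12 Arntl peaks 10 passed the cosine, all in the dark phase, and the peak with the lowest FDR changed by 0.99 ± 0.11 with a fitted peak at ZT21.3, and Npas2 had 3 of 3 (2.33 ± 0.19, ZT23.1). By JTK 5 of the 12 Arntl peaks passed, 4 of them with a LAG of 0 h, and both JTK calls of Npas2 had a LAG of 0 h, against 19.5 or 21 h for the Cry1 peaks. Differences in timing between these genes and Cry1 or Cry2 were not tested. Of the ROR receptor genes, Rorb had its fitted peak at ZT5.56 (2 of 7 peaks) and Rora at ZT13.3 (7 of 24). Peaks of Clock, Nr1d2, Fbxl21 and Timeless did not pass the cosine. Fbxl21 encodes a ubiquitin ligase subunit that binds cryptochromes, and its lowest FDR was 0.524. Csnk1d and Csnk1e, the kinases of PER proteins, had 1 of 5 peaks each, at ZT14.0 and ZT15.6.

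Other genes with at least 1000 mean normalized reads summed over their peaks were compared with each window by their log2 sums over the 8 libraries. Among 7223 such genes, those most like the Cry1 window were Fbxo34 (Pearson r = 0.960), Crbn (0.956), Ptgfrn (0.950), Prkca (0.940) and Tmem28 (0.938). For the Cry2 window, whose sum hardly moved, the most alike among 7222 genes were St3gal4 (0.973), Gm32633 (0.950), Creld1 (0.931), 2010106C02Rik (0.921) and Tgm2 (0.918). These rest on 8 libraries shared by all genes and are given without a test.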

How the data were processed

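PPARγ ChIP-sequencing was performed in iBAT at 8 time points, with 1 library each. The deposited file holds raw read counts per peak and library: per the study's methods, the authors mapped reads to mm10 with BWA-MEM (0.7.17), called peaks with MACS2 (2.1.2), kept those with FDR < 0.05 in at least 6 of 8 libraries and counted reads with HTSeq-count (1.99.2). Handling of duplicate reads is not given in the sources used here.

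From these counts, TMM factors (0.959 to 1.04) and 24-h cosine fits (quasi-likelihood test, 5 residual degrees of freedom, Benjamini-Hochberg adjustment over 66066 peaks) were computed with edgeR (4.0.16) in R (4.3.3), and JTK-cycle with exact null distributions in Python (3.11.15). With 1 library per time point, departure from the fitted curve stands in for replicate error. Both implementations were tested on simulated data. Wilson intervals (95%) cover counting error only. Start sites were curated RefSeq starts of GRCm38.p6. Every peak of both windows, the clock list, 5 genes most alike per window and the nearest peak on each side of each window are named, apart from a few items that are not reported here. The members and lists were chosen with earlier results of these data known. Alternatives were library totals only, DESeq2 (1.42.0) size factors and likelihood ratio test, upper-quartile factors, cyclic loess (limma 3.58.1), other periods and thresholds, and leaving out each library; leaving out the leading peaks was chosen after seeing the data. JTK was also run on sums and ratios over members, as planned, but its P is not given for them, since the members were chosen with results known.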

Additional observations from a re-analysis of the deposited data

How the results depend on the processing

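Each library in turn was left out, normalization, period, threshold and gene assignment were varied. The fitted peaks of the 7 peaks that passed the cosine stayed on the same side of lights off in the refits compared for this. Those were library totals only, each library left out and the DESeq2 likelihood ratio test. Fitted times with upper-quartile factors or a period of 21 h were not compared. The split of all calls between light and dark phase moved with the scaling: beside the values given above, 53.1% of JTK calls had a LAG in the dark phase after cyclic loess, 50.1% with upper-quartile factors and 49.2% with DESeq2 size factors, and 46.0% of cosine calls were in the dark phase with upper-quartile factors. Leaving out 1 library gave 2 to 5 JTK peaks in the Cry1 window (4 with all libraries) and 1 to 3 in the Cry2 window (1), 2 to 5 cosine peaks for Cry1 (5) and 1 to 3 for Cry2 (2), and 1 to 3 shares passing for Cry1 (2). The JTK count for Cry1 fell to 2 without ZT0, ZT15, ZT18 or ZT21, and the cosine count to 2 without ZT12 or ZT18. At a threshold of 0.01, 2 JTK peaks were left in the Cry1 window, those in intron 2 and 9.97 kb into intron 1, and the leading peak was not among them. With library totals only, 2 peaks passed JTK in the Cry2 window. The Cry2 window had 1 cosine peak with a mean count of at least 100 and 1 of 7 by nearest start site. At the 0.05 level the leading Cry1 peak kept its JTK call under the other normalizations and with a period of 24 h only, and both calls with library totals only and with 1 library left out (cosine FDR 0.000109 to 0.00138 with 1 library left out), and the leading Cry2 peak kept its cosine call (0.000713 to 0.00607) but lost its JTK call after cyclic loess. The range of the Cry1 sum (1.58-fold) was 1.69 with library totals only, 1.38 without the leading peak and 1.47 to 1.59 with 1 library left out. For the Cry2 sum (1.18-fold) it was 1.13, 1.15 and 1.10 to 1.18, and 1.11 after cyclic loess. The range of the ratio (1.80-fold) was 2.09 by nearest start site, 1.34 without the leading peaks and 1.63 to 1.80 with 1 library left out. Within 10 kb of a start site, 19 of 58 peaks of the clock list passed JTK. The share of all peaks at that distance is not given, so no result is read from this count. The cause of the shifts with processing was not tested. Other periods do not bear on the ranges of sums and ratios. No paired analysis was possible because each time point had 1 library. Depth limits the weak peaks most: the counting error per library was 12.2% (CV) for the peak 9.97 kb into Cry1 and 14.8% for that at 17.4 kb.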

Other observations

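Beyond the windows, the nearest peak below the Cry2 window, at chr2:92374503-92377006 on the start of Pex16, a peroxisome biogenesis gene, had 2537 normalized reads on average and ranged from 2120 at ZT15 to 2848 at ZT6. It passed JTK (exact P = 0.00595, LAG 6 h), while the edgeR cosine gave 0.32 ± 0.09 at FDR = 0.0557. The nearest peak above that window, at chr2:92466281-92467027 upstream of Slc35c1, ranged from 130 to 179 reads (FDR = 0.561). Below the Cry1 window, the peak at chr10:85061764-85062285 near Fhl4 ranged from 52.3 reads at ZT3 to 186 at ZT12, with a fitted peak at ZT9.49 and FDR = 0.0399 but exact JTK P = 0.915. Above it, the peak at chr10:85295302-85295810 near Btbd11 ranged from 44.9 to 76.6 reads (FDR = 0.557).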
